A study of Mus musculus with 4 samples.

Results

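The genes of MHC class I antigen presentation were followed in subcutaneous tumors of LLC cells, a line of Lewis lung carcinoma from C57BL/6 mice, grafted under the back skin of mice of that strain and sequenced at day 5. The members were chosen by symbol for their role in the pathway, with earlier results of these data known. No threshold on a measured value was used. The members are 10 of the 47729 genes in the table: the heavy chains H2-K1 and H2-D1, the light chain B2m, the peptide transporter genes Tap1 and Tap2, the loading factor Tapbp, the immunoproteasome subunits Psmb8, Psmb9 and Psmb10, and the transactivator Nlrc5. LLC tumors came from cells labelled wild type, and LLC-Chem tumors came from LLC cells transfected with pEFIN plasmids that encode bioactive chemerin (1-157). Each group was measured as 2 pools of 3 tumors, so that 6 tumors stand behind each group mean. LLC-Chem cells were clones selected with G418, and the study's text also describes empty-vector controls, so a difference between the groups cannot be told apart from a difference between clones. The comparison asks how tumors that carry the chemerin plasmid differ from those that do not.

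MHC class I molecules carry peptides from inside the cell to its surface, where CD8+ T cells and natural killer cells read them. Proteins are cut by the proteasome, and in cells exposed to interferon the immunoproteasome subunits replace the constitutive catalytic ones. The peptides are pumped into the endoplasmic reticulum by the TAP transporter, a heterodimer of TAP1 and TAP2, and are loaded with the help of tapasin (Tapbp) onto a heavy chain paired with beta-2-microglobulin. NLRC5 is a transactivator that acts at class I promoters together with a complex bound to a conserved promoter module, and interferon-gamma raises the expression of the pathway as a whole. 

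Promoter sequences are shown first, because the conserved module of class I genes contains a cyclic AMP response-type element followed by an inverted CCAAT box. RefSeq starts on GRCm38.p6 were matched by symbol for 8 of the 10 members, those of Tap2 and Nlrc5 being not used here. The letters TGACG followed after 18 to 22 bases by ATTGG were searched on both strands within 250 bases before the start, and were found in H2-K1, H2-D1 and B2m, each time on the strand of the gene. This pair of motifs, chosen after the expression values were seen, is present in 71 of 27025 promoters of the same length (0.263%), whereas TGACG alone is present in 17.9% and ATTGG alone in 34.5%. Among the 10 other heavy chain genes with a promoter in the table, H2-Q7 and H2-M3 also hold it. Tap1 is shown for contrast, since it holds TGACG with no ATTGG at that spacing. Each line runs 5′ to 3′ along the strand of the gene, with the motif letters in capitals.
B2m, chr2:122147609-122147638, plus strand: TGACGacctccggatctgagtccggATTGG
H2-K1, chr17:34000359-34000388, minus strand: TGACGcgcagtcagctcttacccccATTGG
H2-D1, chr17:35262993-35263022, plus strand: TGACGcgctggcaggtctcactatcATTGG
H2-M3, chr17:37270188-37270217, plus strand: TGACGcttctccaattcccattctaATTGG
H2-Q7, chr17:35439091-35439119, plus strand: TGACGtgtaacagttctcacccctATTGG
Tap1, chr17:34187470-34187499, plus strand: TGACGacagagggtcctgccctcaatctgg

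Counted back from the RefSeq start, the stretch began at base -41 or -55 in H2-K1, which has 2 such starts, -78 in B2m and -101 in H2-D1, where that start lies inside the longer GENCODE gene. The spacing between the capitals was 20 bases in B2m, H2-K1, H2-D1 and H2-M3 and 19 bases in H2-Q7. The interferon-type motif GAANNGAAA was present in H2-K1 and H2-D1 and in 6.34% of all promoters, the related pair of GAAA set 2 bases apart was present in B2m and in 3.04%, and the 3 genes also held an NF-kappaB consensus, which 7.01% of all promoters hold. Both strands were read for these motifs too, and the interferon-type forms can overlap one another. Psmb9 and Tap1 held the same TGACG site and the same ATTGG site, which are not at this spacing. Both sites lie between their RefSeq starts, which face away from each other across 225 bases. Tapbp held ATTGG only, and Psmb8 and Psmb10 held neither TGACG nor ATTGG. These matches describe letters in the window and were not tested for binding.

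The values are RPM, reads normalised to the total counted in each pool, at fitted library totals of 28470000 to 33990000 reads, where 3 reads correspond to 0.088 to 0.105 RPM. The test was limma's two-sided moderated test of log2(RPM + 0.5), with genes called at an adjusted p under 0.05 (Benjamini-Hochberg) among the 13694 whose mean reached 1 RPM. The pools of a group are separate tumors, and the p-values measure the spread between 2 pools only. A permutation test of 1 gene with 2 pools against 2 cannot go below an exact p of 0.333. Rarres2, which encodes chemerin, the transfected gene, was not called, at 102 and 98.2 RPM in the LLC pools and at 105.9 and 105.8 RPM in the LLC-Chem pools (log2 fold change 0.08, adjusted p = 0.541). Both LLC-Chem pools were slightly above both LLC pools. In 33.1% of all genes tested both LLC-Chem pools lay above both LLC pools. Of its exon bases 33.6% are shared with Lrrc61, and whether reads of the transfected sequence were counted on this gene is not given in the sources used here, so the value does not check the labels. Of the epithelial markers Krt8 was at 82.8 to 167 RPM and Krt18 at 110 to 139 RPM, whereas Epcam and Cdh1 fell under the 1 RPM limit and Nkx2-1, a marker of lung epithelium, was at 0 in all pools.

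Of the 10 members, 8 were lower in LLC-Chem tumors and none was called higher. Over all genes tested, 13.5% were called lower and 9.54% higher. The heavy chains, B2m, Tap1, Psmb8, Psmb9 and Nlrc5 were at 28.3% to 46.7% of the LLC mean, and Psmb10 was at 73.7%. Tap2 and Tapbp did not pass the test, and both had their LLC-Chem pools above their LLC pools. That arrangement was seen in 33.1% of all genes tested. The median log2 fold change of the 10 members was -1.26, beside -0.04 for all genes tested. In the called members both LLC-Chem pools lay below both LLC pools, an arrangement also seen in 39.3% of all genes tested. At an unadjusted p under 0.05 limma listed 9 of the 10 members, all but Tapbp, beside 41.4% of all genes tested. With any 1 pool left out, no gene of the table passed the adjusted threshold, while 7 to 9 members had an unadjusted p under 0.05 and the median log2 fold change lay between -1.38 and -1.14. Without the filter on low values no member passed either.

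**Figure D1:**
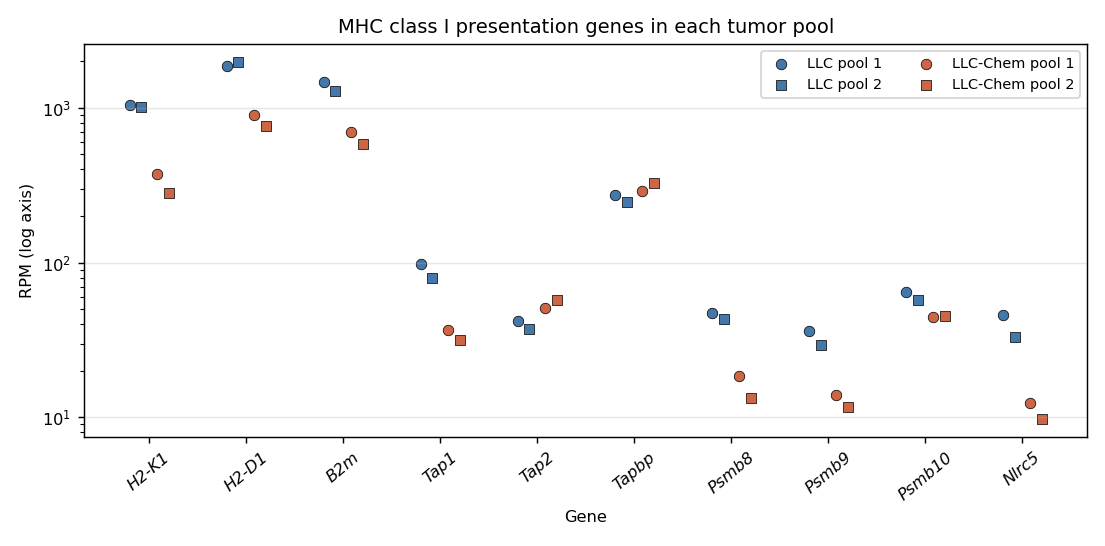
RPM on a log axis for the 10 members, with LLC pools in blue and LLC-Chem pools in orange, circles for replicate 1 and squares for replicate 2. The LLC-Chem pools sit below the LLC pools in 8 genes and above them in Tap2 and Tapbp.

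The heavy chains present peptide to CD8+ T cells, and H2-K1 was the more strongly reduced of them. H2-K1 (ENSMUSG00000061232, chr17:33996017-34000347 of GRCm38, minus strand) was at 1039 and 1006 RPM in the LLC pools and at 375 and 280.4 RPM in the LLC-Chem pools. The group means of 1023 ± 23.4 and 328 ± 66.6 RPM (SD, n = 2 pools) gave a log2 fold change of -1.66 ± 0.17 (SE, limma adjusted p = 0.0105). H2-D1 (ENSMUSG00000073411, chr17:35262730-35267499, plus strand) was at 1859 and 1980.4 RPM in the LLC pools and at 897 and 763 RPM in the LLC-Chem pools. The group means were 1920 ± 85.6 and 830.1 ± 94.3 RPM (SD, n = 2), with a log2 fold change of -1.21 ± 0.16 (SE, limma adjusted p = 0.0135). In both genes the LLC-Chem pools lay well below the LLC pools, with a gap between the groups wider than that between the pools of either group.

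The ratio of H2-K1 to H2-D1 within a pool was 0.559 and 0.508 in the LLC tumors and 0.418 and 0.367 in the LLC-Chem tumors. The ratio was thus 1.36-fold lower in LLC-Chem tumors without overlap of the pools (exact permutation p = 0.333, the smallest this design allows). Both genes were counted against close relatives: of the 50-base words in their transcripts, 9.6% for H2-K1 and 12.8% for H2-D1 occur also in another gene, so a part of their reads could not be assigned with certainty.

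B2m (ENSMUSG00000060802, chr2:122147686-122153083, plus strand) encodes the light chain shared by all classical heavy chains, and no 50-base word of it is found in another gene. It was at 1459 and 1280.3 RPM in the LLC pools and at 699 and 582 RPM in the LLC-Chem pools. The means were 1370 ± 126 and 640.1 ± 82.9 RPM (SD, n = 2), with a log2 fold change of -1.10 ± 0.16 (SE, limma adjusted p = 0.0151). The ratio of H2-D1 to B2m overlapped between the groups, at 1.28 and 1.55 in the LLC pools and 1.28 and 1.31 in the LLC-Chem pools. H2-K1 to B2m did not overlap, at 0.712 and 0.786 against 0.536 and 0.482 (exact permutation p = 0.333). Summed over H2-K1, H2-D1 and B2m, the LLC-Chem pools held 45.7% and 37.7% of the LLC mean.

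Of the subunits of the TAP transporter, Tap1 fell, whereas Tap2 was not called. Tap1 (ENSMUSG00000037321, chr17:34187553-34197225, plus strand) was at 97.8 and 79.6 RPM in the LLC pools and at 36.7 and 31.8 RPM in the LLC-Chem pools. The means of 88.7 ± 12.9 and 34.3 ± 3.43 RPM (SD, n = 2) gave a log2 fold change of -1.36 ± 0.14 (SE, limma adjusted p = 0.0116). Tap2 (ENSMUSG00000024339, chr17:34203527-34216321, plus strand) was at 41.9 and 37.0 RPM in the LLC pools and at 50.8 and 57.4 RPM in the LLC-Chem pools. Its means were 39.5 ± 3.43 and 54.1 ± 4.66 RPM (SD, n = 2), with a log2 fold change of 0.45 ± 0.12 (SE), which missed the threshold (limma adjusted p = 0.0521). Under TMM scaling Tap2 passed it with a log2 fold change of 0.49 (adjusted p = 0.0366), and it was called higher also with median-of-ratios scaling and with edgeR and DESeq2 on the estimated reads.

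The ratio of Tap2 to Tap1 within a pool was 0.428 and 0.466 in the LLC tumors and 1.38 and 1.80 in the LLC-Chem tumors. Tap1 reads therefore exceeded Tap2 reads in both LLC pools and were fewer in both LLC-Chem pools. The ratio was 3.54-fold higher in LLC-Chem tumors (exact permutation p = 0.333). Per exon length the same order held, with Tap1 at 16.2 and Tap2 at 10.4 RPM per kb in the LLC mean and Tap1 at 6.26 and Tap2 at 14.3 RPM per kb in the LLC-Chem mean. In the annotation 18.5% of the exon bases of Tap2 are shared with the overlapping genes Gm15821 and Gm20496, and 3.9% of those of Tap1 with Psmb9, and the strand setting of the counting is not given in the sources used here.

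Tapbp encodes tapasin, which holds the empty heavy chain at the transporter. Tapbp (ENSMUSG00000024308, chr17:33915899-33929292, plus strand) was at 274 and 246 RPM in the LLC pools and at 291 and 325 RPM in the LLC-Chem pools. The means were 260.2 ± 19.8 and 308 ± 24 RPM (SD, n = 2), with a log2 fold change of 0.24 ± 0.12 (SE, limma adjusted p = 0.172). The LLC-Chem pools were the higher ones, by less than the test could call. Of its exon bases 29% are shared with Gm19412 and Zbtb22.

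By contrast, Tap1 and Psmb9, whose starts lie back to back, were at ratios of 2.72 and 2.70 in the LLC pools and 2.62 and 2.72 in the LLC-Chem pools. The log2 difference of that ratio was -0.02, and the pools overlapped (exact permutation p = 1.0).

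The immunoproteasome subunits differed among themselves in the size of the change. Psmb8 (ENSMUSG00000024338, chr17:34197721-34201454, plus strand), which encodes LMP7, was at 47.4 and 43.4 RPM in the LLC pools and at 18.5 and 13.3 RPM in the LLC-Chem pools. Its means of 45.4 ± 2.79 and 15.9 ± 3.67 RPM (SD, n = 2) gave a log2 fold change of -1.50 ± 0.18 (SE, limma adjusted p = 0.0129). Psmb9 (ENSMUSG00000096727, chr17:34181987-34187764, minus strand), which encodes LMP2, was at 36.0 and 29.5 RPM in the LLC pools and at 14 and 11.7 RPM in the LLC-Chem pools. The means of 32.7 ± 4.59 and 12.8 ± 1.63 RPM (SD, n = 2) gave a log2 fold change of -1.31 ± 0.17 (SE, limma adjusted p = 0.0130). Psmb8 was thus 2.82-fold and Psmb9 2.49-fold lower in LLC-Chem tumors on this scale, with no overlap of the pools. Of the exon bases of Psmb8 14.7% are shared with Gm20496, and 5.8% of those of Psmb9 with Tap1.

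Psmb10 (ENSMUSG00000031897, chr8:105935735-105938444, minus strand), which encodes MECL-1, was at 64.8 and 56.9 RPM in the LLC pools and at 44.6 and 45.1 RPM in the LLC-Chem pools. The means of 60.8 ± 5.55 and 44.8 ± 0.354 RPM (SD, n = 2) gave a log2 fold change of -0.43 ± 0.11 (SE, limma adjusted p = 0.0457). Its fall was the smallest among the called members, and without limma's trend between spread and level it was not called (adjusted p = 0.0782).

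Each inducible subunit takes the place of a constitutive catalytic subunit, Psmb8 that of Psmb5, Psmb9 that of Psmb6 and Psmb10 that of Psmb7. None of the 3 constitutive genes passed the test in limma (log2 fold changes of -0.42 for Psmb5, -0.24 for Psmb6 and -0.46 for Psmb7, with adjusted p of 0.0531, 0.124 and 0.0527). Their LLC-Chem pools lay below their LLC pools, an arrangement seen in 39.3% of all genes tested. DESeq2 on the estimated reads called Psmb5 and Psmb7 lower (adjusted p of 0.0445 and 0.0362). The ratio of Psmb8 to Psmb5 was 0.681 and 0.692 in the LLC pools and 0.355 and 0.287 in the LLC-Chem pools, 2.15-fold lower. The ratio of Psmb9 to Psmb6 was 0.253 and 0.227 against 0.120 and 0.104, also 2.15-fold lower. In both pairs the pools did not overlap (exact permutation p = 0.333). The ratio of Psmb10 to Psmb7 overlapped, at 0.899 and 0.896 in the LLC pools and 0.842 and 0.991 in the LLC-Chem pools, so no change of Psmb10 relative to its constitutive counterpart was detectable.

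**Figure D2:**
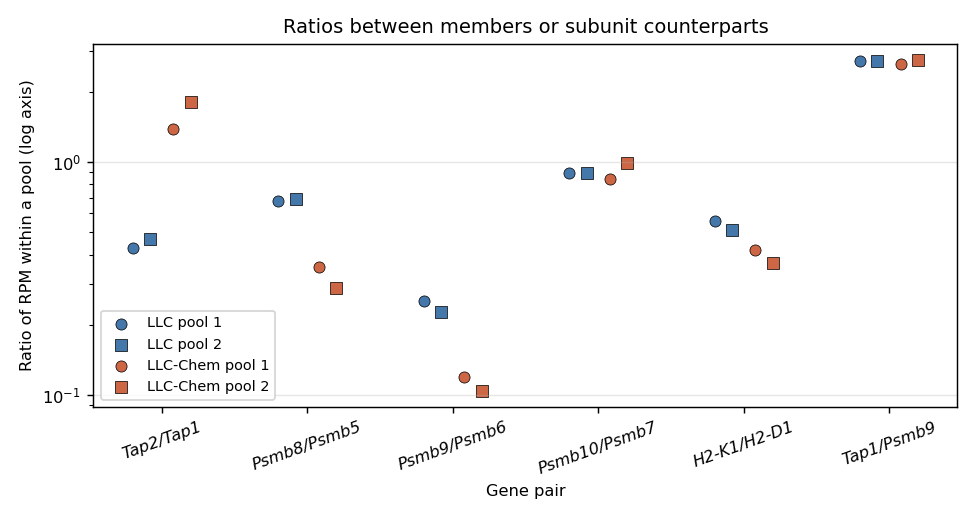
Ratio of RPM between the members of a gene pair within each pool, on a log axis, with symbols as in the plot of RPM by pool. Tap2/Tap1 is 3.54-fold higher in LLC-Chem tumors, Psmb8/Psmb5 and Psmb9/Psmb6 are 2.15-fold lower, and Psmb10/Psmb7 and Tap1/Psmb9 overlap between the groups.

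Of the 11 other 20S core genes, 4 were called lower and none higher, beside 13.5% called lower over all genes, with a median log2 fold change of -0.32. The largest of these falls was that of the beta subunit gene Psmb3, by 0.54 on the log2 scale (limma adjusted p = 0.0297, and 0.0595 without the trend). Of the 8 activator and assembly genes only the assembly chaperone gene Psmg1 was called, and it was lower (log2 fold change -0.59, limma adjusted p = 0.0438, and 0.0563 without the trend). The interferon-inducible activator gene Psme1 was at 122 and 114 RPM in the LLC pools and at 118 and 130.03 RPM in the LLC-Chem pools, with a log2 fold change of 0.07.

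Nlrc5 (ENSMUSG00000074151, chr8:94434356-94527272, plus strand) had the largest fall among the members with all pools in the fit, whereas without LLC pool 1 it fell by 1.54 and H2-K1 by 1.63 on the log2 scale. It was at 45.5 and 32.9 RPM in the LLC pools and at 12.4 and 9.74 RPM in the LLC-Chem pools. The means of 39.2 ± 8.90 and 11.1 ± 1.91 RPM (SD, n = 2) gave a log2 fold change of -1.77 ± 0.21 (SE, limma adjusted p = 0.0126). The higher LLC-Chem pool was still at less than the lower LLC pool, and no 50-base word of Nlrc5 was found in another gene.

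Per exon kilobase the members spanned a wide range of levels, and their order is a description. In LLC tumors B2m was at 1592, H2-D1 at 744 and H2-K1 at 348 RPM per kb, followed by Tapbp at 71.7, Psmb10 at 35.7, Tap1 at 16.2, Psmb8 at 13.4, Tap2 at 10.4, Psmb9 at 8.94 and Nlrc5 at 4.62 RPM per kb. All neighbours in this order were separated by their pools except Tap2 and Psmb9, which overlapped. In LLC-Chem tumors the order of the 10 genes was the same except that Tap2, at 14.3 RPM per kb, stood above Tap1 at 6.26, Psmb8 at 4.71 and Psmb9 at 3.51 RPM per kb, with no overlap between neighbours.

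The pools of a group also differed. LLC pool 1 was above LLC pool 2 in 9 of the 10 members, all but H2-D1, and LLC-Chem pool 1 was above LLC-Chem pool 2 in 7, all but Tap2, Tapbp and Psmb10. The median log2 difference of pool 2 minus pool 1 over the members was -0.18 in LLC and -0.24 in LLC-Chem tumors, beside the median of -1.26 between the groups.

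The other heavy chain genes were lower as well. Of 17 listed genes, 14 were in the table and 9 passed the filter. Among these 9, 8 were called lower and none higher, beside 13.5% of all genes called lower. The median log2 fold change of the 9 was -1.63. H2-Q10 passed the filter through the LLC pools alone, and without it 7 of 8 were called lower and the median was -1.39. Without LLC pool 1 the median of the 9 was -1.15. H2-Q6 was at 91.9 and 46.7 RPM in the LLC pools and at 11.7 and 8.85 RPM in the LLC-Chem pools (log2 fold change -2.63 ± 0.33, limma adjusted p = 0.0130). H2-Q7, which encodes a Qa-2 antigen, was at 85.3 and 55.8 RPM against 18.8 and 12.9 RPM (log2 fold change -2.11). H2-Q4, which shares 19.1% of its exon bases with Gm11131, was at 135 and 88.0 RPM against 35.2 and 34.4 RPM (log2 fold change -1.63). H2-Q6 and H2-Q7 thus had larger fold changes than H2-K1, though the difference between genes was not tested, and 32% of the 50-base words of H2-Q6 occur in other genes.

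H2-T23, which encodes Qa-1 and presents leader peptides of other class I molecules to NKG2A receptors, was at 216 and 184 RPM in the LLC pools and at 118 and 131 RPM in the LLC-Chem pools (log2 fold change -0.68, limma adjusted p = 0.0225). H2-M3, which presents formylated peptides, fell by 0.63 on the log2 scale (limma adjusted p = 0.0267). H2-T24 and H2-T10 were called lower too, with log2 fold changes of -1.88 and -1.15, the call of H2-T10 being lost without the trend (adjusted p = 0.0524). H2-T22 was not called at 156 and 116 RPM against 90.0 and 96.2 RPM (limma adjusted p = 0.0623). DESeq2 on the estimated reads called it lower (adjusted p = 0.0259). Of its 50-base words 34.5% occur in other genes, most of them in H2-T10.

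Among class I-like molecules, which share the class I fold, 1 gene was called in each direction. Mr1, which presents vitamin B metabolites, rose from 17.5 and 21.0 RPM in the LLC pools to 35.7 and 36.5 RPM in the LLC-Chem pools (log2 fold change 0.89, limma adjusted p = 0.0166). Procr, the endothelial protein C receptor, was lower (log2 fold change -0.87, limma adjusted p = 0.0168), and the other 3 of the 5 genes tested were not called. Among the 9 loading cofactors and trimming enzymes, Tapbpl, a tapasin relative that edits peptides, fell by 0.69 on the log2 scale (limma adjusted p = 0.0309) and Ganab, a glucosidase subunit, was higher by 0.40 (limma adjusted p = 0.0475, and 0.0802 without the trend). The chaperone genes Pdia3 and Hspa5 were not called, at log2 fold changes of -0.06 and 0.26. Of the 6 cytosolic peptidases tested, only Npepps was called, and it was higher (log2 fold change 0.37, limma adjusted p = 0.0498), a call that was lost with a pseudocount of 0.1 (adjusted p = 0.0508) and without the trend (adjusted p = 0.0954).

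**Figure D3:**
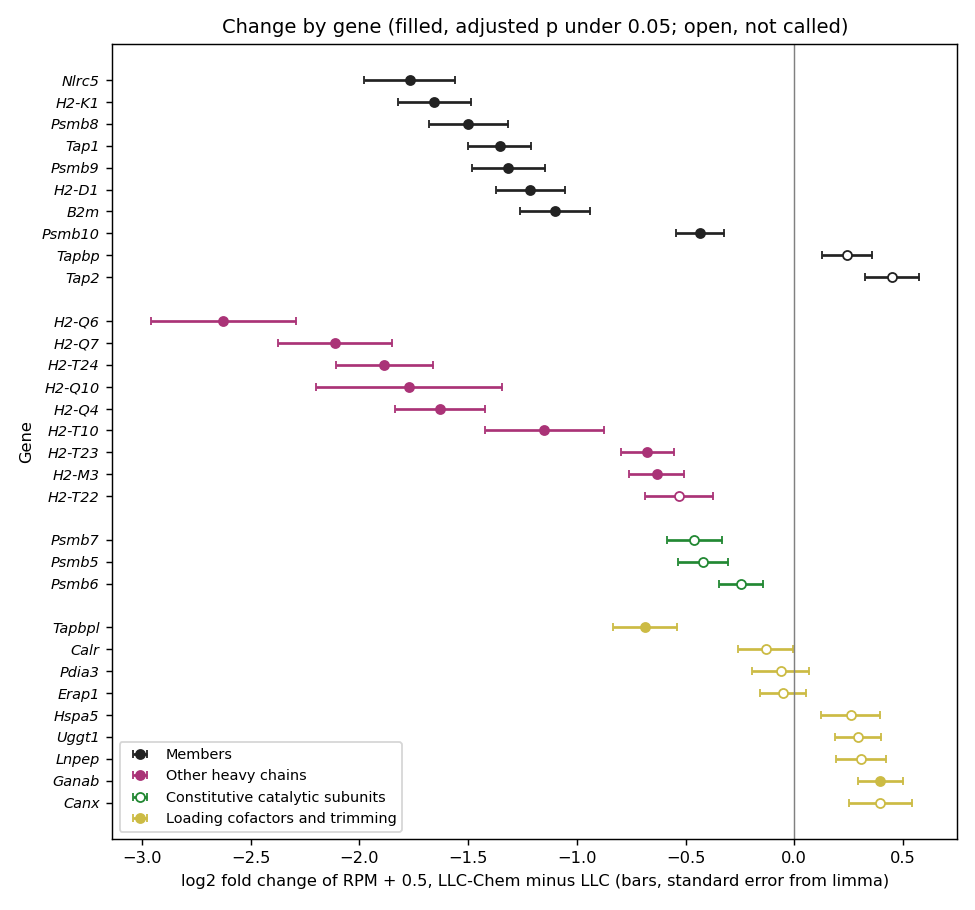
log2 fold change of LLC-Chem against LLC with the standard error from limma, for the members, the other heavy chains, the constitutive catalytic subunits and the loading cofactors. Filled points passed an adjusted p of 0.05, Nlrc5 at -1.77 and Tap2 at 0.45 mark the ends of the member range, and H2-Q6 at -2.63 has the lowest value shown.

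Of the members, 7 lie on chromosome 17 in the MHC, B2m is on chromosome 2, and Psmb10 and Nlrc5 are on chromosome 8. Over 34.3 kb the annotation holds Psmb9, Tap1, Psmb8 and Tap2 in this order. Tap2 starts 2072 bases beyond the end of Psmb8, and its pools lay in the opposite order to those of its 3 neighbours. Between the start of Tapbp and the end of H2-M2, a stretch of 3568 kb, 112 genes were tested. Of the 7 members there, 5 were called lower, beside 13.5% of all genes tested. Of 6 listed class II genes 1 (16.7%) was called lower, with a median log2 fold change of -1.42. Of the 90 other genes, which hold the unlisted class II gene H2-DMb2 and the unlisted class I genes H2-K2 and H2-Q5, 7 were called lower and 4 higher, a share of 7.78% lower with a median of -0.001. The 7 include Aif1 (log2 fold change -2.09), Lst1 (-2.40) and Tnf (-1.76), genes of myeloid cells, and H2-Q5 (-1.54), all named after their values were seen.

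**Figure D4:**
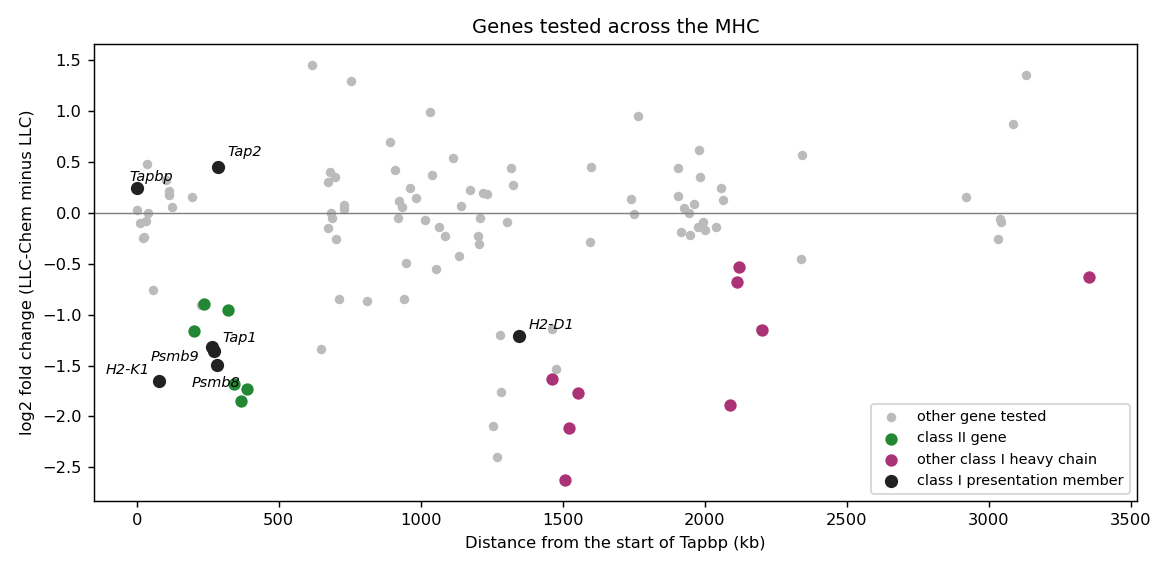
log2 fold change of LLC-Chem against LLC for the 112 genes tested across the MHC, by distance in kb from the start of Tapbp. Members, other class I heavy chains and class II genes lie below 0 with the exception of Tap2 and Tapbp, while the median of the other genes is -0.001.

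The module of TGACG and ATTGG was found in genes of every call. Of the 71 genes that hold it, 49 were tested, of which 18.4% were called lower and 8.2% higher, beside 13.5% and 9.54% of all genes tested, and their median log2 fold change was -0.03. H2-K1, H2-D1, B2m, H2-Q7 and H2-M3, whose sequences are shown above, are among the 9 called lower.

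Of 19 transcriptional regulators of the pathway tested beside Nlrc5, 1 was called lower and 1 higher, with a median log2 fold change of 0.05, which turned to -0.16 without LLC pool 2 and was 0.11 without LLC pool 1. Stat2, a component of the type I interferon factor, fell by 0.81 on the log2 scale (limma adjusted p = 0.0460), and Rfx5, a subunit of the complex that binds the class I promoter module, rose by 0.67 (limma adjusted p = 0.0478). Both calls were lost without the trend (adjusted p of 0.0769 for Stat2 and 0.0595 for Rfx5), and without LLC pool 1 the log2 fold change of Stat2 was -0.51. Overlapping genes share 26.8% of the exon bases of Rfx5. Irf1, an activator of Tap1, Psmb9 and Nlrc5, was at 101 and 78.1 RPM in the LLC pools and at 84.1 and 207 RPM in the LLC-Chem pools, so the LLC-Chem pools lay on either side of an LLC pool. Its log2 fold change of 0.57 (limma adjusted p = 0.334) turned to -0.08 without LLC-Chem pool 2.

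Some receptors of the interferon input were lower. Ifng itself was under the 1 RPM limit and not tested, with values of 0.5 and 0.15 RPM in LLC tumors and of 0.05 RPM in each LLC-Chem pool. The LLC-Chem values are under the amount that 3 reads allow, so no fold is given. Of the 8 receptor, kinase and regulator genes tested, 3 were called lower and none higher, beside 13.5% of all genes called lower. The 3 were Ifnar2 (log2 fold change -0.74, limma adjusted p = 0.0191), Ifngr2 (-0.56, 0.0187) and Ifnar1 (-0.50, 0.0482). The call of Ifnar1 was lost under TMM scaling (adjusted p = 0.0709) and without the trend (adjusted p = 0.0859). Ifngr1 was not called (log2 fold change -0.70, limma adjusted p = 0.0573). DESeq2 on the estimated reads called it lower (adjusted p = 0.0181), and without LLC pool 2 its log2 fold change was -0.45.

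Of 17 interferon targets outside the pathway, 12 were called lower and none higher, beside 13.5% of all genes called lower. Their median log2 fold change was -1.48, and it was -0.86 without LLC pool 1. Mx1, an antiviral GTPase, was at 84 and 36.9 RPM in the LLC pools and at 9.79 and 7.75 RPM in the LLC-Chem pools (log2 fold change -2.61, limma adjusted p = 0.0156). Ifit3 was at 195 and 71.5 RPM against 28.4 and 32.8 RPM (log2 fold change -1.93, limma adjusted p = 0.0359, and 0.0619 without the trend). Rsad2, at 236 and 78.3 RPM against 41.7 and 39.1 RPM, was not called (log2 fold change -1.74, limma adjusted p = 0.0533). Without LLC pool 1 the log2 fold change was -1.21 for Ifit3 and -0.95 for Rsad2. The summed level of these targets was at 134% and 65.7% of the LLC mean in the LLC pools, a wider spread than the 102% and 98.2% of the members, and at 35.5% and 40.2% in the LLC-Chem pools.

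Class II genes and their transactivator Ciita, a relative of Nlrc5, had both LLC-Chem pools below both LLC pools in all 8 genes tested, an arrangement seen in 39.3% of all genes. Of these, 2 were called lower, beside 13.5% of all genes, and the median log2 fold change was -1.65. The median was -2.35 without LLC-Chem pool 1 and -0.92 without LLC-Chem pool 2, and it was -1.69 without H2-Ob, which passed the filter through the LLC pools alone. H2-Aa was at 282 and 449 RPM in the LLC pools and at 163 and 59.7 RPM in the LLC-Chem pools (log2 fold change -1.84, limma adjusted p = 0.0474), and Ciita was at 8.20 and 12.1 RPM against 4.45 and 1.45 RPM (log2 fold change -1.76, limma adjusted p = 0.0485). Both calls were lost under TMM scaling (adjusted p of 0.0551 for H2-Aa and 0.0559 for Ciita) and without the trend (0.0769 and 0.0723), and without LLC-Chem pool 2 the log2 fold changes were -1.12 for H2-Aa and -1.08 for Ciita. The ratio of Nlrc5 to Ciita overlapped between the groups, at 5.56 and 2.71 in the LLC pools and 2.80 and 6.72 in the LLC-Chem pools.

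Leukocyte and endothelial markers were lower too, while fibroblast markers went both ways. Of 17 leukocyte markers 13 were tested, and 9 of them were called lower and none higher, beside 13.5% of all genes called lower. The median log2 fold change of the 13 was -1.08. Cd4 and Ncr1 passed the filter through the LLC pools alone, and without them 8 of 11 were called lower with a median of -1.07. Without LLC-Chem pool 1 the median of the 13 was -1.75, and without LLC-Chem pool 2 it was -0.72. Their RPM summed to 1768 and 2299 in the LLC pools and to 1192 and 674 in the LLC-Chem pools, the latter 58.6% and 33.1% of the LLC mean. Ptprc, which encodes CD45, was at 124.5 and 124.3 RPM in the LLC pools and at 55.2 and 29.3 RPM in the LLC-Chem pools, and the natural killer cell receptor gene Ncr1 was at 2.20 and 2.50 RPM against 0.20 and 0.05 RPM. The T and B cell markers Cd3e, Cd8a and Ms4a1 were under the 1 RPM limit. All 5 endothelial markers were called lower, among them Cdh5 at 51.3 and 34.1 RPM against 9.84 and 5.25 RPM, and their sum was at 27.5% and 15.1% of the LLC mean in the LLC-Chem pools. Of 5 fibroblast markers, the collagen genes Col1a1 and Col1a2 were called lower (log2 fold changes of -1.51 and -1.46). Pdgfra was called higher (0.72, limma adjusted p = 0.0450, and 0.0764 without the trend, with a log2 fold change of 0.45 without LLC pool 1). The others were not called and had LLC-Chem pools above LLC pools, an arrangement seen in 33.1% of all genes tested. The sum of the housekeeping genes was at 99.4% and 93.1%. Single genes among these 6 moved both ways, with log2 fold changes from -0.48 to 0.355, and 1 was called lower. Leukocytes and endothelium express class I genes too. From bulk RNA values alone, fewer cells of a type and less RNA per cell cannot be told apart. By staining of sections, the study reports a smaller relative endothelial area in LLC tumors expressing chemerin, at the same day. By flow cytometry it reports no significant change of a leukocyte subset, the LLC data not being shown. The difference between that report and the lower leukocyte markers here was not tested. The part of leukocytes and endothelium in the lower levels of the members was not tested either.

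The lists did not follow one order over the pools. Within LLC tumors the leukocyte and class II sums were the higher in pool 2, whereas 9 of the 10 members and the interferon target and endothelial sums were the higher in pool 1. Within LLC-Chem tumors the leukocyte sum was 58.6% in pool 1 and 33.1% in pool 2 and the endothelial sum 27.5% and 15.1%, beside 50% and 43.4% for the sum of the members and 55.5% and 50.4% for the immunoproteasome subunits. Of 11 listed receptors of natural killer, T and myeloid cells, many of which bind class I or class I-like molecules, 6 were tested. All 6 were called lower, beside 13.5% of all genes tested. The genes Klra7, Klrd1 and Klra8 among them averaged under 1 RPM in LLC-Chem tumors and passed the filter through the LLC pools alone. Their calls are therefore not counted as support. That leaves 3 of 3 called lower, most of them receptors of myeloid cells. Among these 3, 1 gene shares 98.9% of its exon bases with overlapping genes.

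**Figure D5:**
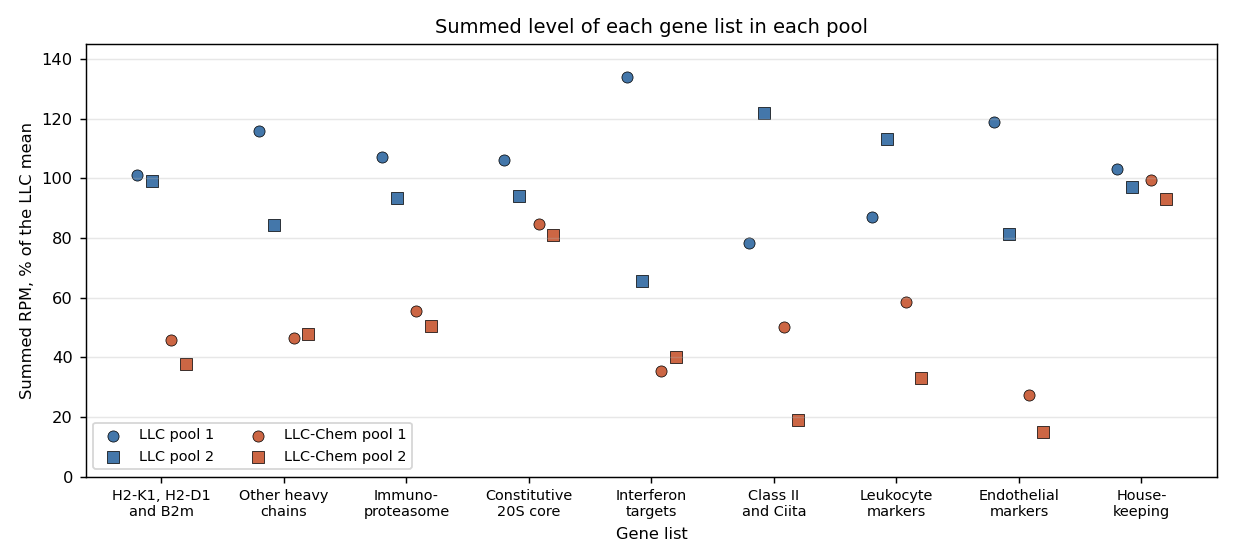
Summed RPM of each gene list in each pool, as a percentage of the mean of the LLC pools, with symbols as in the plot of RPM by pool. H2-K1, H2-D1 and B2m sum to 45.7% and 37.7% in the LLC-Chem pools, leukocyte markers to 58.6% and 33.1%, endothelial markers to 27.5% and 15.1%, and housekeeping genes to 99.4% and 93.1%.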

How the data were processed

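RNA was sequenced from 4 tumor pools, with groups and replicate numbers taken from the labels. The authors aligned paired-end reads with STAR to GRCm38.p4, counted Ensembl genes with HTSeq and deposited RPM. The tool versions and the strand setting are not given in the sources used here. The deposited RPM are whole multiples of 0.05 RPM (100% of values, within 0.1 of a step), which points to reads scaled to a common 20000000 and rounded before deposit. Library totals (28470000 to 33990000) were fitted from the histogram of these steps, and reads were estimated from the totals, so both are estimates. Floors of 3 reads cover counting error only. At this depth the spread between 2 pools, not counting, limits precision.

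Group differences in log2(RPM + 0.5), a scale that understates changes of low genes, were fitted by limma 3.58.1 (R 4.3.3, trend), since RPM are not counts, and genes averaging under 1 RPM were left out. Pools with the same number did not deviate together (correlation -0.14), so no pairing was used. Alternatives were pseudocounts of 0.1 and 1, TMM and median-of-ratios scaling, no filter and a filter of 5 RPM, no trend, a replicate block, edgeR 4.0.16 and DESeq2 1.42.0 on the estimated reads, and leaving out each pool. A crossed pairing was added after seeing the data. On the estimated reads edgeR called 1551 genes higher and 1600 lower, and DESeq2 called 1876 and 2271. Levels per kb used merged exons of GENCODE M21, which holds 47224 (98.9%) of the identifiers.

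The members and gene lists were chosen with earlier results of these data known. From each list, up to 4 called genes with the largest change and up to 3 uncalled genes with the highest mean could be named, and any gene of the heavy chain, constitutive subunit, regulator, interferon input and class II lists. Marker genes and genes named after their values were seen are exceptions. Results for some further genes are not reported here.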

Additional observations from a re-analysis of the deposited data

How the results depend on the processing

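The direction of all 10 members was kept under every alternative run, and the median log2 fold change of the members lay between -1.38 and -1.14. The 8 lower members were called with pseudocounts of 0.1 and 1, both other scalings, a filter of 5 RPM, edgeR and DESeq2, and 7 were called without the trend and with the replicate block, both of which lost Psmb10. Tap2 made 1 member called higher under TMM scaling, median-of-ratios scaling, edgeR, DESeq2 and the crossed pairing. Without a filter on low values limma called 0 members lower, and over all genes 1 higher and 0 lower, with 7397 genes and 9 members at an unadjusted p under 0.05. Without 1 pool, limma called 0 members lower and 0 genes of the table in either direction, with 2578 to 4973 genes and 7 to 9 members at an unadjusted p under 0.05, and the lone pool was assumed to vary like the other group. These fits leave 1 residual degree of freedom, and what else lowers the count was not tested. edgeR and DESeq2 were not run without a pool.

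The replicate block, on numbers that only name the pools, called 549 genes higher and 1064 lower, and the crossed pairing called 1579 and 2320. Of 46 other named genes, the block ended the call of 16 and added 1. Under the alternatives other than no filter and left-out pools all 46 kept their direction, with 44 of their calls lost and 12 gained over all settings. With 1 pool left out, the log2 fold change of Irf1 ran from -0.075 to 1.217 and that of Krt18 from -0.137 to 0.182. Depth does not limit the members, which were at 9.74 RPM or more in every pool, but it limits Ifng, which was near the floor of 3 reads.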
